A study of Mus musculus with 8 samples.

Results

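The pre-B cell receptor (pre-BCR) signals through a short relay of kinases and adaptors, and 9 genes of this relay were followed in developing B cells of mice with or without deletion of *Upf1*. They were *Syk*, *Lyn*, *Blk* and *Btk* (tyrosine kinases), *Blnk* and *Pik3ap1* (adaptors), *Plcg2* (a phospholipase), *Pik3r1* (a regulatory subunit of phosphoinositide 3-kinase, PI3K) and *Ptpn6* (the phosphatase SHP-1). They were listed by name as proximal pre-BCR signalling genes, and all 9 were found among the 27179 genes of the count table and among the 17700 that passed the expression filter. RNA was measured by RNA sequencing in sorted bone marrow cells, in 8 libraries with 2 (replicates 1 and 2) in each of 4 groups. The study's methods describe male and female C57BL/6 mice of 8 to 16 weeks. Ctrl/*Igh* B1-8hi mice were *Upf1* Flox/Flox and *Mb1* +/+ with 1 *Igh* allele B1-8hi (*Igh* B1-8hi/+). The cKO/*Igh* B1-8hi mice differed by being *Mb1* Cre/+, so both genotypes carried the floxed *Upf1* alleles and a heavy chain knock-in that supplies a rearranged *Igh* gene. *Mb1*-Cre is a knock-in at *Cd79a*, a signalling subunit of the receptor itself, and is active throughout the B lineage. The cKO mice therefore also carried Cre and a changed *Cd79a* allele, whose effects and that of *Upf1* deletion cannot be told apart here. From each genotype early large pre-B (early LPre-B) cells, sorted as large CD43+ CD2- cells, and small pre-B (sPre-B) cells, sorted as small CD43 low, CD25+ CD2+ cells, were analysed. The study's methods describe its replicates as biological and independent, and the labels do not name the animals behind the libraries.

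As background, the pre-BCR pairs the immunoglobulin heavy chain with the surrogate light chain (products of *Igll1* and *Vpreb1*) and with CD79A and CD79B. SRC-family kinases such as LYN and BLK phosphorylate CD79A and CD79B, SYK binds there, and SYK then phosphorylates the adaptor BLNK, on which BTK and PLCG2 assemble to raise calcium. The adaptor encoded by *Pik3ap1* (BCAP) recruits PI3K, and SHP-1 removes phosphate from the pathway's proteins. In large pre-B cells the receptor drives a burst of division, and in small pre-B cells SYK and BLNK are known for their part in leaving the cell cycle and in opening the light chain genes.

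Counts were those the authors deposited, scaled to library size (CPM) with edgeR's TMM factors. Library totals lay between 68516857 and 160426338 counts, and each of the 9 genes had at least 11099 counts in each library, far above the 3 counts (0.0217 to 0.0426 CPM) taken as the smallest level that could be shown, which covers counting error only. A gene was called changed where edgeR's two-sided quasi-likelihood test over the 17700 genes gave an adjusted *P* under 0.05, and fold changes are given as Log2FC with their standard error (SE). The gene-level *Upf1* count was not lower in the cKO libraries (244 to 293 CPM, against 186 to 237 in Ctrl) and was higher in cKO sPre-B cells (Log2FC 0.59, SE 0.10, adjusted *P* = 0.00245). By the study's methods the deletion covers exons 4 to 6. The deposited counts are per gene and not per exon, so they do not check the genotype label. *Cd79a*, at the Cre locus, was at 160.0 to 405 CPM in cKO and 543 to 1602 in Ctrl. By *Xist* and 4 Y-linked genes, both Ctrl replicate 2 libraries were male and the other 6 female. The 2 Ctrl libraries of each stage thus came from different animals and also differ by sex, so results in Ctrl were also computed without those 2 libraries. The cells had the markers of their gates. *Il2ra* (CD25) was at 18.6 to 53.6 CPM in early LPre-B and 476 to 532 in sPre-B cells, and *Cd2* at 4.95 to 6.18 and 135 to 178. T cell markers summed to at most 1.76 CPM in any library. Marker lists moved with genotype too. A small pre-B list of 5 genes summed to 797 to 799.8 CPM in Ctrl and 280.0 to 344 in cKO early LPre-B cells, and to 4677 to 5173 and 3260.0 to 3341 in sPre-B cells. Most of both differences was *Rag1*, a recombinase gene, at 409 and 385 CPM in Ctrl and 44.0 and 74.9 in cKO early LPre-B cells. In sPre-B cells it was at 3508 and 2964 and then 1497 and 1612. *Rag2* was also lower in cKO early LPre-B cells (89.0 and 85.9 CPM in Ctrl, 36.5 and 48.6 in cKO). So were *Il2ra* (36.6 and 53.6, then 18.6 and 25.8) and the transcription factor gene *Ikzf3* (260 and 267, then 176 and 188), whereas *Cd2* overlapped. In sPre-B cells *Il2ra* was not lower in cKO (481 and 532 CPM, against 476 and 479 in Ctrl), and the genotypes overlapped for *Ikzf3* (1002 and 924, against 855 and 929). *Cd2* (150 and 135 CPM, against 178 and 161) and *Rag2* (131 and 138, against 155 and 144) were lower in cKO in that stage. A large pre-B and proliferation list of 6 genes, most of it *Mki67* and *Top2a*, summed to 7709 to 8167 and 5251 to 5508 in early LPre-B cells. *Myc* went the other way there (60.9 and 48.1 CPM in Ctrl, 111 and 86.1 in cKO), while the other listed genes had lower means in cKO. In sPre-B cells the list summed to 601 to 1158 and 1090.0 to 1268. The 2 Ctrl libraries differed there (*Mki67* at 717 and 360 CPM), and *Igll1*, *Vpreb1* and *Myc* were higher in cKO. A myeloid list of 8 genes, most of it *Itgam* (CD11b, whose surface protein the sort gated out), summed to 111 to 134 and 50.1 to 55.6 in early LPre-B cells, and to 304 to 355 and 211 to 243 in sPre-B cells. A mature B list of 4 genes was higher in cKO, at 52.5 to 64.3 CPM in Ctrl and 72.6 to 75.5 in cKO early LPre-B cells. There *Ighd* and *Cr2* were apart between genotypes, and *Fcer2a* and *Ms4a1* overlapped. In sPre-B cells the list was at 226 to 300.1 and 371 to 603. *Ms4a1* overlapped again (84.6 and 110 CPM in Ctrl, 255 and 96.9 in cKO). *Fcer2a* was at 6.03 and 5.33 CPM in Ctrl and 83.8 and 29.9 in cKO, so cKO replicate 1 set the upper value of the list. A B lineage list of 5 genes, *Cd79a* among them, was lower in cKO, at 2117 to 2198 CPM in Ctrl and 1498 in both cKO early LPre-B libraries, and at 4918 to 5638 and 3451 to 3847 in sPre-B cells. Erythroid markers (4 of the 5 listed were in the table) summed to 10.1 to 10.9 and 2.56 to 6.47, then to 17.6 to 20.6 and 6.12 to 10.3. An NK list of 3 genes summed to 3.03 to 3.31 CPM in Ctrl and 0.508 to 0.799 in cKO early LPre-B cells and to at most 0.532 in sPre-B cells. None of these lists had a marker at 0 in all 8 libraries, and their part in the results below was not tested. In bulk RNA, fewer cells of a type and less RNA per cell cannot be told apart.

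The regions just before the start sites of the genes that moved together are shown first, since they are the sequences nearest to the RNA levels described here. *Syk*, *Lyn*, *Blk*, *Btk*, *Blnk* and *Pik3ap1* were higher in sPre-B cells in both genotypes and lower in cKO early LPre-B cells. RefSeq promoters (build GRCm38.p6, the same as mm10) matched 7 of the 9 genes, with 9 start sites, and the unmatched genes were *Lyn* and *Blk*. The 250 bases before each start are given 5′ to 3′ on the strand of the gene for the matched genes of that group, with capitals for the motifs searched on both strands.
Syk, first start (chr13:52583187-52583436, plus strand): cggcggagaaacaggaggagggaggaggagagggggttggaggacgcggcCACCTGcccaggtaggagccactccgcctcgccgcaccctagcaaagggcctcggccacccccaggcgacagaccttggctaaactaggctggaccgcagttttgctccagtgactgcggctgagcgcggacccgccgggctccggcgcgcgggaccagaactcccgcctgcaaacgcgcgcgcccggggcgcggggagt
Syk, second start (chr13:52596632-52596881, plus strand): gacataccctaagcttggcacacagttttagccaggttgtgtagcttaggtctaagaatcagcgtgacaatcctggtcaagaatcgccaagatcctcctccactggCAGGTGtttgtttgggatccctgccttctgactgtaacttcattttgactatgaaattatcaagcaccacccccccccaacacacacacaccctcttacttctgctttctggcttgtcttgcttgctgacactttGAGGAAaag
Btk (chrX:134583141-134583390, minus strand): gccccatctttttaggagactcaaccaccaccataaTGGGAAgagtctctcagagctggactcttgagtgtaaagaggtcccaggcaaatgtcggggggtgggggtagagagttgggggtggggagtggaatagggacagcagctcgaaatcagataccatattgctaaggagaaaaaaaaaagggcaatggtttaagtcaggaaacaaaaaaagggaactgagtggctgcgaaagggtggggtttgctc
Blnk (chr19:40994222-40994471, minus strand): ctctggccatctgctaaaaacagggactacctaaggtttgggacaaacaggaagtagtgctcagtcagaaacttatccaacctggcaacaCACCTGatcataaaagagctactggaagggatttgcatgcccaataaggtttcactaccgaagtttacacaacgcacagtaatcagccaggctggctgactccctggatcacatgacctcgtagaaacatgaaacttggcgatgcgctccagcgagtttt
Pik3ap1 (chr19:41385103-41385352, minus strand): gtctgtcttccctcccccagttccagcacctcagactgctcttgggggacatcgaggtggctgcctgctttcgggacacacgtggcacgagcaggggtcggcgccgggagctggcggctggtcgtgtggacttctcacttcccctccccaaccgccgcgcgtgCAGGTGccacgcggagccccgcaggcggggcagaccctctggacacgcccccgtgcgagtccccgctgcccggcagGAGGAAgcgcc
The motif CAGGTG (an E-box bound by E2A, or CACCTG on the other strand) was in 6 of the 9 windows of the signalling genes, and 17.2% of all 32851 promoter windows of that length held it. It was in both *Syk* windows and in those of *Blnk*, *Pik3ap1*, *Plcg2* and *Ptpn6*. GAGGAA (a core of PU.1 and other ETS factors) was in 2 of the 9, against 23.3% of all windows, and TGGGAA (an Ikaros core) in 3 of the 9, against 21.6%. CCCNNGGG (an EBF1 core, in 11.8% of all windows) and GTAAACA (a forkhead core, in 3.17%) were in 0 of the 9. The *Plcg2* and *Ptpn6* windows, whose genes were not called with stage, also held CAGGTG, and the 2 *Pik3r1* windows held none of the motifs. GC content ranged from 42.4% to 76.4%, the values of the windows of the 2 *Pik3r1* starts, around a median of 52.4% over all windows. These matches are letters in a window and were not measured as binding.

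Compared between stages, most of these genes were higher in sPre-B cells. In Ctrl/*Igh* B1-8hi cells 7 of the 9 were higher at an adjusted *P* under 0.05 (29.1% of all genes tested were) and 0 were lower (31.1% of all genes were). The count of 0 was also 0 at an unadjusted *P* under 0.05, with edgeR's likelihood-ratio test and with DESeq2. In cKO/*Igh* B1-8hi cells 6 of the 9 were higher (31.6% of all genes) and 0 lower (31.1% of all genes), again with 0 lower at an unadjusted *P* under 0.05 and with both other tests. The median Log2FC of the 9 genes was 0.54 in Ctrl and 0.41 in cKO, beside 0.02 and 0.05 over all genes. Both sPre-B libraries lay above both early LPre-B libraries for 8 of the 9 genes in Ctrl (40.5% of all genes) and for 7 in cKO (42.8% of all genes). Compared between genotypes, the Log2FC of each of the 9 genes was below 0 in cKO in both stages, though not all of them were called lower. In early LPre-B cells 7 of the 9 were called lower (16.9% of all genes) and 0 higher (14.5% of all genes). In sPre-B cells 4 were called lower (14.9%) and 0 higher (19.8%). Each count of 0 higher was also 0 at an unadjusted *P* under 0.05, with the likelihood-ratio test and with DESeq2. *Lyn*, *Blk*, *Btk* and *Pik3r1* were called lower in both stages, 4 of the 9, whereas 8.68% of all genes were. The median Log2FC of the 9 was −0.45 in early LPre-B and −0.33 in sPre-B cells, beside −0.06 and 0.01 over all genes. Both cKO libraries lay below both Ctrl libraries for 8 of the 9 genes in early LPre-B cells (36.4% of all genes) and also for 8 in sPre-B cells (34.3% of all genes).

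**Figure D1:**
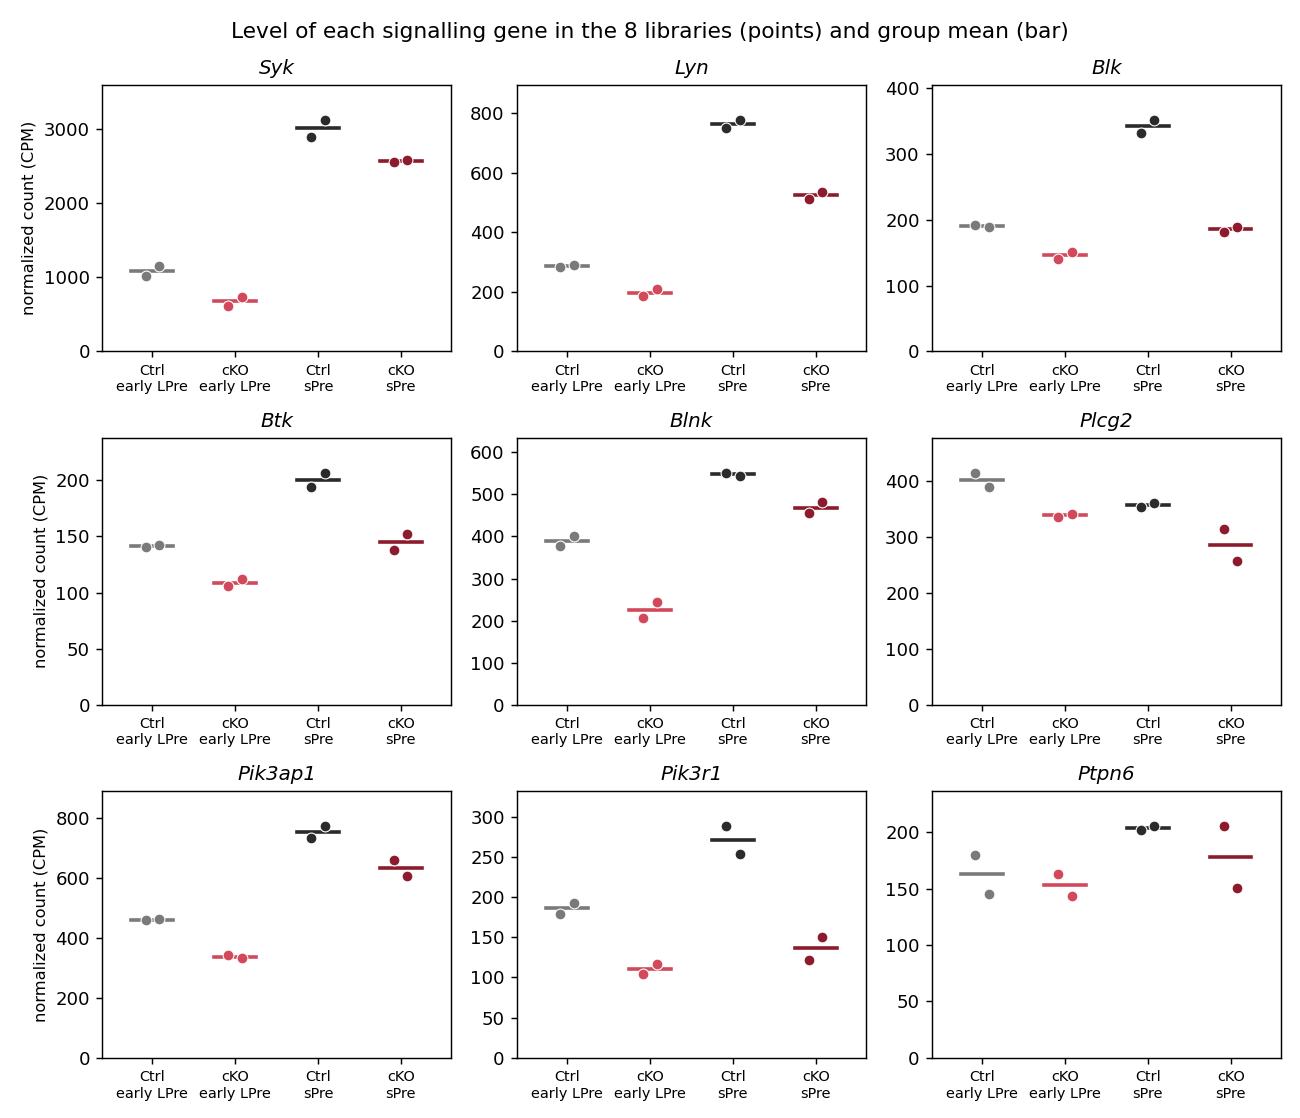
Normalized count (CPM, linear axes from 0) of each of the 9 signalling genes in the 8 libraries, with points for the 2 libraries of a group and a bar for their mean. For each gene except *Ptpn6* both cKO points lie below both Ctrl points of the same stage, and for *Syk* and *Lyn* the sPre-B points lie far above the early LPre-B points.

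Among the kinases that start the relay, *Lyn* (Entrez 17096, mm10 chromosome 4, 3678068 to 3791612), a SRC-family kinase that both starts and restrains receptor signalling, was at 283 and 292 CPM in Ctrl and 186 and 208 in cKO early LPre-B cells. In sPre-B cells it was at 749 and 777 CPM in Ctrl and 513 and 536 in cKO. The 4 groups did not overlap, and replicates differed by at most 1.12-fold. *Lyn* was 2.66-fold higher at the sPre-B stage both in Ctrl (Log2FC 1.41, SE 0.11, adjusted *P* = 1.14e-05) and in cKO (Log2FC 1.41, SE 0.11, adjusted *P* = 1.16e-05). It was lower in cKO by the same size in each stage, with a Log2FC of −0.54 (SE 0.11, adjusted *P* = 0.00621) in early LPre-B and −0.54 (SE 0.11, adjusted *P* = 0.00554) in sPre-B cells. The first of these calls was lost without cKO early LPre-B replicate 1 (adjusted *P* = 0.0664). The difference between these effects was 0.002 on the log2 scale, with a 95% interval from −0.34 to 0.35, and its sign changed between settings. Of the annotated *Lyn* exon bases, 6.09% are shared with the predicted gene *Gm26857*, and counts there are uncertain because strand was not used.

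*Blk* (Entrez 12143, chromosome 14, 63372837 to 63417187), the SRC-family kinase named for the B lineage, was at 192 and 189 CPM in Ctrl and 141 and 150.4 in cKO early LPre-B cells. In sPre-B cells it was at 332 and 352 CPM in Ctrl but 182 and 189 in cKO. The cKO sPre-B libraries thus overlapped the Ctrl early LPre-B libraries, whereas the other neighbouring groups were apart. The rise with stage was 1.80-fold in Ctrl (Log2FC 0.85, SE 0.09, adjusted *P* = 6.52e-05) and 1.27-fold in cKO (Log2FC 0.35, SE 0.09, adjusted *P* = 0.00889). The latter call was lost without cKO early LPre-B replicate 1 (adjusted *P* = 0.0757) and without cKO sPre-B replicate 2 (adjusted *P* = 0.059). In cKO *Blk* was lower by a Log2FC of −0.38 (SE 0.09, adjusted *P* = 0.0126) in early LPre-B cells and of −0.88 (SE 0.09, adjusted *P* = 2.21e-04) in sPre-B cells. The early LPre-B value was −0.34 with an adjusted *P* of 0.103 without cKO early LPre-B replicate 1. The difference of these effects was −0.50 (95% interval −0.79 to −0.21), which did not pass over all genes with the quasi-likelihood test (adjusted *P* = 0.0654) and did with DESeq2 (adjusted *P* = 0.00585) or without Ctrl sPre-B replicate 1 (adjusted *P* = 0.0416).

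*Syk* (Entrez 20963, chromosome 13, 52582610 to 52648792), the kinase that binds the phosphorylated receptor, had the highest counts of the 9 genes. It was at 1021 and 1148 CPM in Ctrl and 615 and 738 in cKO early LPre-B cells, and at 2883 and 3119 CPM in Ctrl and 2556 and 2576 in cKO sPre-B cells. All 4 groups were apart, and the gap between genotypes was wider relative to the level in early LPre-B cells. *Syk* was 2.77-fold higher in sPre-B cells in Ctrl (Log2FC 1.47, SE 0.16, adjusted *P* = 7.9e-05) and 3.79-fold higher in cKO (Log2FC 1.92, SE 0.16, adjusted *P* = 1.96e-05). In early LPre-B cells it was lower in cKO, with a Log2FC of −0.68 (SE 0.16, adjusted *P* = 0.0129), a call that was lost without Ctrl early LPre-B replicate 2 (adjusted *P* = 0.062) and without cKO early LPre-B replicate 1 (adjusted *P* = 0.101). In sPre-B cells the Log2FC was −0.23 (95% interval −0.59 to 0.14, adjusted *P* = 0.307). The difference of 0.45 between the stages had an interval from −0.06 to 0.97 and an adjusted *P* of 0.296.

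*Btk* (Entrez 12229, chromosome X, 134542334 to 134583628), the TEC-family kinase that activates PLCG2 and is mutated in human X-linked agammaglobulinemia, was at 141 and 142 CPM in Ctrl and 105 and 112 in cKO early LPre-B cells. In sPre-B cells it was at 194 and 207 CPM in Ctrl and 138 and 152 in cKO. The male and female Ctrl libraries of this X-linked gene differed by at most 1.07-fold. As for *Blk*, the cKO sPre-B libraries overlapped the Ctrl early LPre-B libraries. *Btk* was higher in sPre-B cells by a Log2FC of 0.50 (SE 0.09, adjusted *P* = 0.00138) in Ctrl and of 0.41 (SE 0.09, adjusted *P* = 0.00376) in cKO. In cKO it was lower by −0.38 (SE 0.09, adjusted *P* = 0.0136) in early LPre-B cells and by −0.47 (SE 0.09, adjusted *P* = 0.00476) in sPre-B cells. With the male Ctrl libraries left out, the first of these was −0.32 with an adjusted *P* of 0.0681. It was also lost without Ctrl early LPre-B replicate 1 (adjusted *P* = 0.0515), Ctrl early LPre-B replicate 2 (adjusted *P* = 0.0681) or cKO early LPre-B replicate 1 (adjusted *P* = 0.104). Without cKO sPre-B replicate 1 the second was −0.40 with an adjusted *P* of 0.0518. The effects in the 2 stages differed by −0.09 (95% interval −0.38 to 0.20, adjusted *P* = 0.763).

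Of the adaptors and the enzyme they bring together, *Blnk* (Entrez 17060, chromosome 19, 40928927 to 40994221), the scaffold on which BTK meets PLCG2, was at 377 and 401 CPM in Ctrl and 207 and 244 in cKO early LPre-B cells. In sPre-B cells it was at 551 and 545 CPM in Ctrl and 456 and 481 in cKO. All 4 groups were apart, and the largest gap between genotypes was in early LPre-B cells. There *Blnk* was lower in cKO by a Log2FC of −0.79 (SE 0.12, adjusted *P* = 0.00153), the largest fall among the 9 genes in that stage, and it stayed past the threshold in each fit that left out a library. In sPre-B cells the Log2FC was −0.23 (95% interval −0.49 to 0.03, adjusted *P* = 0.161). *Blnk* was 1.41-fold higher in sPre-B cells in Ctrl (Log2FC 0.50, SE 0.12, adjusted *P* = 0.0053) and 2.08-fold higher in cKO (Log2FC 1.06, SE 0.12, adjusted *P* = 7.59e-05). The difference of 0.56 between these effects (95% interval 0.19 to 0.93) did not pass over all genes (adjusted *P* = 0.0933), and DESeq2 gave 0.52 with an adjusted *P* of 0.0297.

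*Plcg2* (Entrez 234779, chromosome 8, 117498275 to 117635142), the phospholipase that makes the messengers for calcium release and protein kinase C, was not called with stage. It was at 415 and 389.5 CPM in Ctrl and 336 and 342 in cKO early LPre-B cells, and at 354 and 361 CPM in Ctrl and 314 and 257 in cKO sPre-B cells. Its order of levels was thus the only 1 among the 9 genes with Ctrl early LPre-B cells at the top, and the 4 groups were apart by narrow gaps. With stage, its Log2FC was −0.17 (95% interval −0.44 to 0.10, adjusted *P* = 0.237) in Ctrl and −0.25 (−0.51 to 0.02, adjusted *P* = 0.0938) in cKO. In cKO against Ctrl it was −0.25 (−0.51 to 0.02, adjusted *P* = 0.142) in early LPre-B and −0.33 (−0.59 to −0.06, adjusted *P* = 0.061) in sPre-B cells. The last of these values passed with DESeq2 (−0.36, adjusted *P* = 0.0148) and with median-ratio factors (−0.36, adjusted *P* = 0.0405), and without cKO sPre-B replicate 1 it was −0.47 (adjusted *P* = 0.044). Leaving out Ctrl early LPre-B replicate 1 or 2 also took it past the threshold (adjusted *P* = 0.0418 and 0.0435). Without cKO sPre-B replicate 1 the stage effect in cKO passed as well (−0.40, adjusted *P* = 0.0379).

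*Pik3ap1* (Entrez 83490, chromosome 19, 41272541 to 41385102) encodes BCAP, an adaptor that couples the receptor to PI3K. It was at 462 CPM in both Ctrl and at 344 and 332 in cKO early LPre-B libraries, and at 734 and 774 CPM in Ctrl and 662 and 609 in cKO sPre-B cells. The groups were apart, with the 2 Ctrl early LPre-B libraries almost equal. *Pik3ap1* was higher in sPre-B cells by a Log2FC of 0.71 (SE 0.11, adjusted *P* = 6.11e-04) in Ctrl and 0.91 (SE 0.11, adjusted *P* = 1.39e-04) in cKO. In cKO early LPre-B cells it was lower by −0.45 (SE 0.11, adjusted *P* = 0.0155). That call was lost in each fit that left out 1 of the 4 early LPre-B libraries, with an adjusted *P* between 0.0553 and 0.0935. In sPre-B cells the Log2FC was −0.25 (95% interval −0.50 to 0.005, adjusted *P* = 0.117), and DESeq2 gave −0.28 with an adjusted *P* of 0.0242.

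*Pik3r1* (Entrez 18708, chromosome 13, 101680761 to 101768217) encodes the p85 alpha regulatory subunit that holds the PI3K catalytic subunit and docks it on phosphorylated adaptors. It was at 179 and 192 CPM in Ctrl and 105 and 116 in cKO early LPre-B cells, and at 288 and 253 CPM in Ctrl and 122 and 151 in cKO sPre-B cells. Both cKO groups lay below both Ctrl groups, so that here genotype separated the libraries more than stage did. In cKO it was lower by a Log2FC of −0.75 (SE 0.13, adjusted *P* = 0.00288) in early LPre-B cells and of −0.99 (SE 0.13, adjusted *P* = 6.47e-04) in sPre-B cells, the largest fall among the 9 genes in that stage. Over the 16 other settings these values ranged from −0.83 to −0.65 and from −1.15 to −0.85, each past the threshold. *Pik3r1* was 1.46-fold higher in sPre-B cells in Ctrl (Log2FC 0.54, SE 0.13, adjusted *P* = 0.00514), while in cKO the Log2FC was 0.31 (95% interval 0.02 to 0.59, adjusted *P* = 0.0602), which passed in 3 of the 17 other settings. These were the fit without cKO sPre-B replicate 1 (0.45, adjusted *P* = 0.0265), the replicate block within genotype (0.30, adjusted *P* = 0.0186) and the fit with immunoglobulin genes left out (0.32, adjusted *P* = 0.0494). The 2 effects differed by −0.24 (95% interval −0.64 to 0.17, adjusted *P* = 0.499).

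*Ptpn6* (Entrez 15170, chromosome 6, 124720707 to 124738709), which encodes the inhibitory phosphatase SHP-1, had no call in any comparison in the main fit, as was the case for *Plcg2*. It was at 180.1 and 145 CPM in Ctrl and 163 and 143 in cKO early LPre-B cells, and at 202 and 205 CPM in Ctrl and 206 and 150.1 in cKO sPre-B cells. Neighbouring groups overlapped throughout, and its replicates differed by up to 1.37-fold, more than those of any other of the 9 genes. The Log2FC with stage was 0.32 (95% interval −0.04 to 0.69, adjusted *P* = 0.113) in Ctrl and 0.21 (−0.15 to 0.58, adjusted *P* = 0.273) in cKO. The Ctrl value passed in 2 of the 17 other settings, those with a replicate block (lowest adjusted *P* = 0.0231, quasi-likelihood test). Between genotypes it was −0.09 (−0.45 to 0.28, adjusted *P* = 0.722) in early LPre-B and −0.20 (−0.56 to 0.17, adjusted *P* = 0.382) in sPre-B cells. The sign of the cKO stage value and of both genotype values depended on which library was left out. Its exons share 6.96% of their bases with the predicted gene *Gm20531*, where unstranded counts are uncertain.

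**Figure D2:**
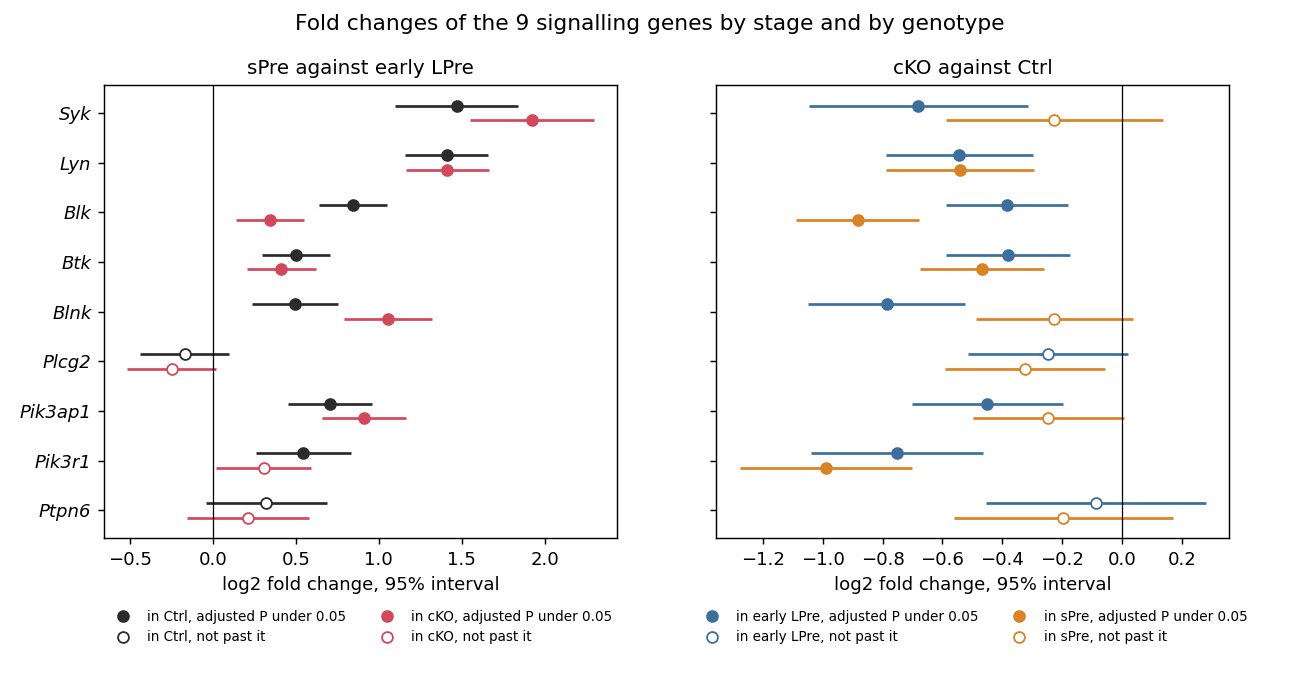
Log2 fold changes of the 9 signalling genes with 95% intervals, for sPre- against early LPre-B cells (left, in Ctrl and in cKO) and cKO against Ctrl (right, in early LPre- and in sPre-B cells), with filled points for an adjusted *P* under 0.05. All 18 estimates on the right lie below 0, and *Blk* and *Blnk* are the genes whose effects differ most between stages, in opposite directions.

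Whether the effect of genotype differed between stages was tested for each gene as an interaction. None of the 9 passed over all genes with edgeR's quasi-likelihood test, 0 as higher (2.64% of all genes) and 0 as lower (1.6% of all genes). At an unadjusted *P* under 0.05 there were 2, *Blnk* with a positive and *Blk* with a negative value. DESeq2 called both, and edgeR's likelihood-ratio test called *Blk* (adjusted *P* = 0.0414). The median of the 9 values was −0.08, beside 0.07 over all genes.

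The count of calls in cKO early LPre-B cells depended on single libraries. Of the 7 genes called lower, *Blnk* and *Pik3r1* alone passed without cKO early LPre-B replicate 1, a count of 2. Without Ctrl early LPre-B replicate 2 the count was 4, and without both male Ctrl libraries it was also 4, with *Syk*, *Btk* and *Pik3ap1* not past the threshold in either fit. All 7 Log2FC values stayed negative in these fits, in which the single library left in a group is taken to vary like those of the other groups. In sPre-B cells the count lay between 4 and 6 over the settings tried, and without both male libraries the counts were 4 lower in sPre-B cells and 7 higher with stage in Ctrl, as with them.

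Levels per length show how the 9 genes stood to each other. RPKM values (CPM per kilobase of exon, over the exons of transcripts with a RefSeq record) in Ctrl early LPre-B cells were 195 ± 16.1 for *Syk* and 185 ± 8.07 for *Blnk* (SD, n = 2 each), a difference within their spread. *Pik3ap1* (103 ± 0.126), *Plcg2* (93.6 ± 4.17), *Lyn* (82.9 ± 1.82), *Blk* (81.8 ± 0.873), *Ptpn6* (66.8 ± 10.04) and *Btk* (55.7 ± 0.415) followed, and *Pik3r1* was lowest at 24.6 ± 1.23. *Lyn* and *Blk* did not differ beyond their spread in this group. In Ctrl sPre-B cells *Syk* stood apart at 539 ± 29.9 RPKM, above *Blnk* at 261 ± 2.31 and *Lyn* at 220.4 ± 5.82. There *Ptpn6* (83.7 ± 0.909) and *Plcg2* (83.1 ± 1.18) did not differ beyond their spread, and *Pik3r1* was again lowest at 35.8 ± 3.26. The order depends on which exons are counted as the gene's length. With the exons of all annotated transcripts, *Blnk* in Ctrl early LPre-B cells was at 64.9 RPKM, below *Lyn* at 70.5, while *Syk* was still the highest at 116.

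Relatives of these genes were set beside them per length. Over 7 SRC-family kinases (*Lyn*, *Blk*, *Fyn*, *Fgr*, *Lck*, *Src* and *Yes1*), *Lyn* and *Blk* together made up most of the summed RPKM in each library. In Ctrl early LPre-B cells *Lyn* took 41.6% ± 1.66 of this sum, *Blk* 41.0% ± 0.301 and *Lck*, the kinase of T cell receptor signalling, 10.8% ± 1.82 (SD, n = 2 each). In Ctrl sPre-B cells *Lyn* took 58.0% ± 0.181, *Blk* 38.6% ± 0.455 and *Lck* 0.897% ± 0.163 (SD, n = 2 each). *Lck* fell with stage in Ctrl (Log2FC −2.66, SE 0.17, adjusted *P* = 4.98e-06). In cKO sPre-B cells *Lyn* took 62.8% ± 0.211 and *Blk* 33.0% ± 0.038 (SD, n = 2 each), a smaller *Blk* share than in the Ctrl libraries of that stage by more than the spread between replicates. *Zap70*, the relative of *Syk* used by T cell receptors, was at 17.6 and 13.8 CPM in Ctrl and 25.8 and 34.5 in cKO early LPre-B cells and at most 0.967 CPM in sPre-B cells. It was higher in cKO early LPre-B cells (Log2FC 0.94, SE 0.31, adjusted *P* = 0.0477), where *Syk* was lower, so that *Syk* took 90.1% ± 0.698 of the pair's summed RPKM against 96.5% ± 0.855 in Ctrl. Markers of T cells such as *Cd3e* were at most 1.14 CPM in each library.

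Within PI3K, *Pik3r1* was lower in cKO and *Pik3r2*, which encodes the regulatory subunit p85 beta, was not. *Pik3r2* was at 41.5 and 35.0 CPM in Ctrl and 52.3 and 49.7 in cKO early LPre-B cells, higher in cKO (Log2FC 0.41, SE 0.12, adjusted *P* = 0.0269). In sPre-B cells it was at 70.3 and 77.5 CPM in Ctrl and 91.9 and 78.2 in cKO (Log2FC 0.20, adjusted *P* = 0.211). *Pik3r1* took 65.4% ± 3.43 of the summed RPKM of *Pik3r1*, *Pik3r2* and *Pik3r3* in Ctrl and 46.9% ± 2.66 in cKO early LPre-B cells (SD, n = 2 each). At the sPre-B stage its share was 59.2% ± 3.84 in Ctrl and 39.4% ± 6.03 in cKO (SD, n = 2 each). Per length, *Pik3r1* thus held the larger share in each Ctrl library and *Pik3r2* in each cKO library. In cKO early LPre-B replicate 2 these shares were close (48.7% and 49.7%). The switch depends on the exon lengths used (7561 and 3165 bases), since in CPM *Pik3r1* was above *Pik3r2* in each library. Of the catalytic subunits, *Pik3cd* (p110 delta) was lower in cKO in early LPre-B (Log2FC −0.54, adjusted *P* = 0.00458) and sPre-B cells (Log2FC −0.33, adjusted *P* = 0.0321), and *Pik3cg* (p110 gamma) by −0.81 (adjusted *P* = 0.00137) and −0.89 (adjusted *P* = 7.06e-04). *Pik3ca* (p110 alpha) had Log2FC values of −0.17 (adjusted *P* = 0.297) and 0.09 (adjusted *P* = 0.594). *Ptpn11*, the relative of *Ptpn6* that encodes SHP-2, was higher in cKO in both stages, by 0.31 (adjusted *P* = 0.0299) and 0.26 (adjusted *P* = 0.0499). These relatives were chosen after their values could be seen.

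**Figure D3:**
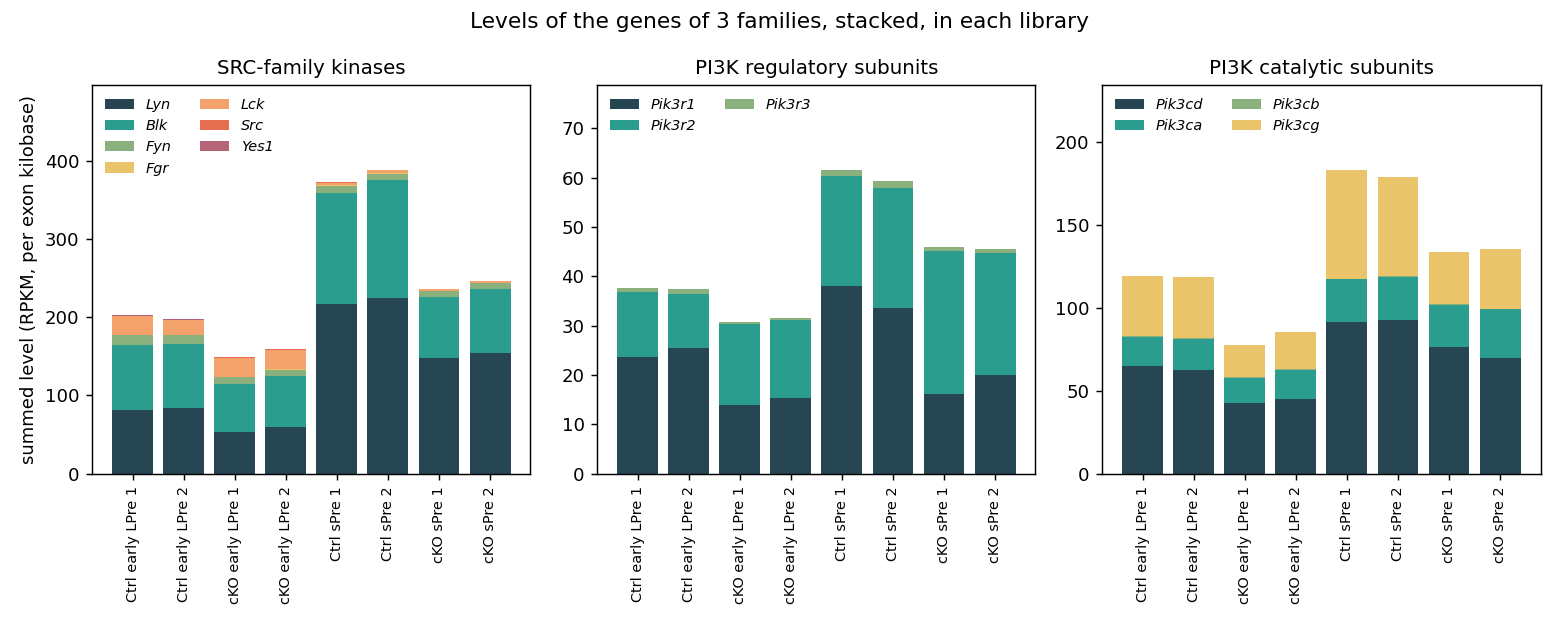
Levels per exon kilobase (RPKM, linear axes from 0) of 7 SRC-family kinases, 3 PI3K regulatory subunits and 4 PI3K catalytic subunits, stacked in each of the 8 libraries. *Lck* is visible above *Lyn* and *Blk* in the early LPre-B libraries and hardly in the sPre-B libraries, and the *Pik3r1* segment is smaller than that of *Pik3r2* in the 4 cKO libraries only.

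The rest of the pathway was described with 7 lists of 103 genes in all, each of which was tested. At the sPre-B stage 47 of the 103 were higher and 21 lower in Ctrl (29.1% and 31.1% of all genes tested), and 57 higher and 23 lower in cKO (31.6% and 31.1% of all genes). In Ctrl the PI3K and AKT list had 8 of 16 higher and 0 lower, and the calcium, protein kinase C and NF-kB list 10 of 18 higher and 1 lower. The RAS and MAP kinase list had 3 of 14 higher and 4 lower, and the inhibitory receptors and phosphatases 7 of 13 higher and 5 lower. The adaptor and exchange factor list had 9 of 20 higher and 4 lower, and the tyrosine kinases outside the 9 genes 5 of 12 higher and 3 lower. In the list of receptor and coreceptor genes 5 of 10 were higher and 4 lower. Those lower in Ctrl included the surrogate light chain genes *Igll1* (Log2FC −5.56, SE 0.21, adjusted *P* = 6.87e-07), *Vpreb1* (−5.09, SE 0.24, adjusted *P* = 1.37e-06) and *Vpreb2* (−5.39, SE 0.29, adjusted *P* = 2.22e-06). *Bank1*, a B cell scaffold protein (Log2FC 3.98, SE 0.26, adjusted *P* = 4.81e-06), and *Rasgrp1*, an exchange factor that activates RAS (2.23, SE 0.10, adjusted *P* = 1.15e-06), were among the largest rises.

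Between genotypes, 41 of the 103 were lower and 8 higher in cKO early LPre-B cells (16.9% and 14.5% of all genes tested), and 26 were lower and 10 higher in cKO sPre-B cells (14.9% and 19.8% of all genes). The adaptor and exchange factor list had 11 of 20 lower and 1 higher in early LPre-B cells and 7 lower and 1 higher in sPre-B cells. For PI3K and AKT genes the counts were 10 of 16 lower and 1 higher, then 6 lower and 0 higher, and for the calcium, protein kinase C and NF-kB list 10 of 18 lower and 2 higher, then 3 lower and 1 higher. The receptor list had 2 of 10 lower and 0 higher, then 2 lower and 3 higher, and its counts of lower genes were near the share over all genes. The tyrosine kinases outside the 9 had 3 of 12 lower and 1 higher, then 2 lower and 0 higher. The RAS and MAP kinase list had 4 of 14 lower and 0 higher, then 4 lower and 2 higher. The inhibitory receptors and phosphatases had 1 of 13 lower and 3 higher, then 2 lower and 3 higher. The median Log2FC of the 103 was −0.26 and −0.15, nearer to 0 than that of the 9 genes.

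Several genes of these lists changed between genotypes by more than any of the 9. *Lcp2*, which encodes SLP-76, the relative of BLNK, was at 11.5 and 7.57 CPM in Ctrl and 1.35 and 0.778 in cKO early LPre-B cells (Log2FC −3.17, SE 0.37, adjusted *P* = 4.78e-04), and was lower in sPre-B cells too (Log2FC −1.76, SE 0.35, adjusted *P* = 0.00566). *Cd79a*, which carries the tyrosines that LYN and SYK act on, was lower by −1.77 (SE 0.16, adjusted *P* = 1.57e-04) and −2.08 (SE 0.16, adjusted *P* = 7.05e-05), at the locus that holds the Cre insertion. *Rasgrp1* was at 67.8 and 66.7 CPM in Ctrl and 24.3 and 23.6 in cKO early LPre-B cells (Log2FC −1.49, SE 0.10, adjusted *P* = 4.76e-05), and lower by −1.54 (SE 0.10, adjusted *P* = 2.99e-05) in sPre-B cells. *Egr1*, a gene switched on by the MAP kinase arm, was lower by −1.89 (SE 0.22, adjusted *P* = 4.48e-04) and −3.23 (SE 0.24, adjusted *P* = 5.11e-05). In the other direction, *Pirb*, an inhibitory receptor gene (1.61, SE 0.31, adjusted *P* = 0.00483) and the complement receptor gene *Cr2*, which is also on the mature B list (1.21, SE 0.19, adjusted *P* = 0.00189), were higher in cKO sPre-B cells. *Pirb* was at 18.8 and 23.5 CPM in Ctrl and 86.3 and 43.3 in cKO sPre-B cells, and *Cr2* at 9.58 and 9.33 and then 25.9 and 18.0. By smaller amounts than the fall of *Pik3r1*, *Igll1* (0.66, SE 0.18, adjusted *P* = 0.0211) and *Vpreb1* (0.88, SE 0.21, adjusted *P* = 0.0131) were also higher there, at levels of 8.77 to 10.3 CPM.

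**Figure D4:**
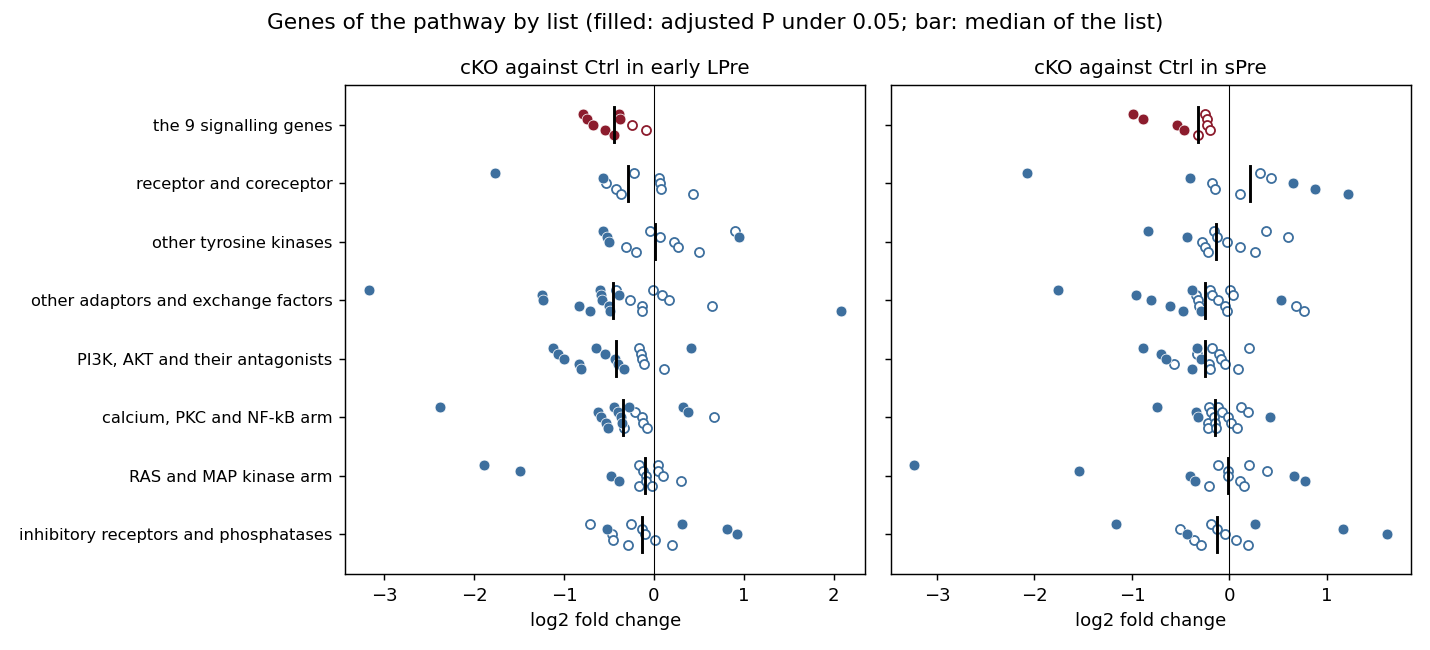
Log2 fold changes of cKO against Ctrl in early LPre-B (left) and sPre-B cells (right) for the 9 signalling genes (red) and the 103 other genes of the pathway (blue) by list, with filled points for an adjusted *P* under 0.05 and a bar at the median of each list. The 9 genes lie between −0.79 and −0.09 on the left and between −0.99 and −0.20 on the right, while each other list holds values on both sides of 0.

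The interaction of stage and genotype passed for 6 of the 103 pathway genes, near the share over all genes (2.64% higher and 1.6% lower). It was positive for 5, among them *Pirb* (2.32, SE 0.47, adjusted *P* = 0.0341), *Vpreb1* (1.41, SE 0.29, adjusted *P* = 0.0346), the adaptor *Gab2* (0.78, SE 0.17, adjusted *P* = 0.04) and *Foxo1*, a transcription factor that AKT keeps out of the nucleus (0.62, SE 0.14, adjusted *P* = 0.0468). It was negative for *Lck* (−1.06, SE 0.24, adjusted *P* = 0.045).

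For each of the 9 genes, the gene whose log2 CPM followed it most closely over the 8 libraries was found among 10995 genes with a mean of at least 5 CPM. For *Syk* this was *Btg2*, which encodes an antiproliferative protein, with a Pearson r of 0.999, and for *Lyn* an unnamed gene (Entrez 100861874) with an r of 0.999. *Pik3ap1* was closest to *B3gnt8* (0.998), *Blk* to *Zfp275* (0.996), *Btk* to *Rnpc3* (0.995), *Blnk* to *Zfp354b* (0.995) and *Pik3r1* to *Ak3* (0.994). The values were lower for *Plcg2* with *Gimap5* (0.956) and *Ptpn6* with *Pip4k2b* (0.912). These are descriptions over 8 libraries that share stage, genotype and sequencing depth, and each is the highest of many.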

How the data were processed

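Libraries were made with a directional kit after ribosomal RNA depletion (8 in all). The authors used Trim Galore, then HISAT2 (mm10, paired-end, unstranded) and featureCounts, and deposited the raw counts of each gene. Genes carry Entrez identifiers, which were named from RefSeq (25275 of 27179). Their exon lengths came from GENCODE. Counts were fitted in R 4.3.3 with edgeR 4.0.16 (TMM, expression filter by group, 1 mean per group over the 8 libraries, common biological coefficient of variation 0.174) and tested with the two-sided quasi-likelihood test with Benjamini-Hochberg adjustment over 17700 genes. The method was tested on simulated data for cKO against Ctrl in sPre-B cells (17428 genes). It called 24 of 100 genes changed by 0.5 on the log2 scale, 96 of 100 changed by 1 and 9 unchanged genes. Far fewer genes changed there than were called in the data (3505 higher and 2629 lower), so these shares need not hold for the tests above. The authors used edgeR without naming the test. Totals of 68516857 to 160426338 counts set the precision. Alternatives were the likelihood-ratio test, DESeq2 1.42.0, median-ratio factors, no filter, a replicate block (over all libraries or within genotype), a fit of only the 4 libraries compared, immunoglobulin genes left out, and each library left out. The 9 genes, the pathway and marker lists and the motifs were chosen with earlier results of these data known. From the pathway lists, up to 6 genes per direction and comparison with the largest Log2FC, an adjusted *P* under 0.05 and at least 5 CPM were eligible to be named, and part of them are given. Some genes are not reported here. Same-numbered libraries deviated together across genes with correlations of 0.0858 to 0.395 between the groups compared, and with 2 pairs per comparison the numbers were not taken to pair the libraries.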

Additional observations from a re-analysis of the deposited data

How the results depend on the processing

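Over 17 alternatives, 684 of 738 single-gene values kept their direction and their side of the threshold. The number of the 9 genes lower in cKO early LPre-B cells fell from 7 to between 2 and 7 when a library was left out, and to 4 without Ctrl replicate 2 of both stages. For the interaction, the count of positive genes went from 0 to 1 (*Blnk*) with DESeq2 and with the replicate block within genotype. The count of negative genes went from 0 to 1 (*Blk*) with these, the likelihood-ratio test and median-ratio factors, and lay between 0 and 1 with a library left out. In cKO the count lower in sPre-B cells went from 0 to 1 (*Plcg2*) with the replicate block within genotype, and lay between 0 and 1 with a library left out. Values near 0 changed sign. The *Lyn* interaction (0.002) was −0.0416 with DESeq2, −0.0390 with median-ratio factors, −0.0006 with no filter, −0.0808 without Ctrl replicate 2 of both stages and −0.107 to 0.0816 with a library left out. With a library left out *Ptpn6* ranged from −0.181 to 0.113 (cKO against Ctrl, early LPre-B), −0.439 to 0.0114 (sPre-B), −0.0330 to 0.420 (stage, cKO) and −0.355 to 0.0966 (interaction), and the *Plcg2* interaction from −0.229 to 0.0562. With the replicate block (paired by number), *Plcg2* in sPre-B cells (−0.33, adjusted *P* = 0.0427) and *Ptpn6* with stage in Ctrl (0.34, adjusted *P* = 0.0361) also passed, and no other call of the 9 genes changed. *Ptpn6* with stage in Ctrl (0.33, adjusted *P* = 0.0231) and *Pik3r1* with stage in cKO (0.30, adjusted *P* = 0.0186) passed with the replicate block within genotype. The causes were not tested. Having 2 libraries per group, read without strand, limit what differences could be shown.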
